A study of Mus musculus with 8 samples.

Results

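MHC class II positive cells made up 388 of 5218 cells (7.44%) in cultures of mouse bone marrow grown with the macrophage growth factor M-CSF. They were chosen by measured counts, as the cells in which at least 2 of the 4 genes H2-Aa, H2-Ab1, H2-Eb1 and Cd74 were detected, with at least 3 unique molecular identifiers (UMIs, each standing for 1 counted RNA molecule) in sum. A cell was a barcode with at least 1000 UMIs and 300 detected genes, of whose UMIs no more than 20% came from mitochondrial genes. A barcode that recurred among the tables of a date stamp was kept where it had most UMIs. None of the 4 genes was detected in 3413 cells, and the remaining 1417 cells lay between. The 4 genes chose the cells, so their levels inside the positive cells are given as a description.

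The study exposed these cultures to CYR61, the protein made by Ccn1, a matricellular protein that binds integrins. Marrow came from the hind limbs of C57Bl/6J mice that the labels give as male and aged 10 weeks. Every culture had M-CSF for 3 days, and the next 24 h were spent with 4 µg/mL CYR61 in the 4 CYR61 libraries and without it in the 4 control libraries. Cells were detached with accutase and captured on HIVE, a microwell platform for single-cell RNA sequencing. Whether the replicates were separate mice, separate cultures or splits of a culture is not given in the labels, so p-values below reflect the spread between libraries, which may be technical.

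MHC class II molecules present peptides from endosomes to CD4 T cells. H2-Aa and H2-Ab1 encode the α and β chains of the I-A molecule, and H2-Eb1 encodes the β chain of I-E, whose α chain gene is not functional in C57BL/6 mice. Cd74 encodes the invariant chain, which fills the groove until the endosome, where the DM molecule (H2-DMa with H2-DMb1 or H2-DMb2) helps exchange its remnant for peptide. The coactivator CIITA switches these genes on through proteins bound at paired promoter elements named the X box and the Y box. Dendritic cells and B cells express class II constitutively, whereas macrophages carry little until they are stimulated, classically by interferon-γ.

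The paired elements could be read in the promoters of 2 of the 4 genes and are shown as background on these genes, not as a result. The stretches are RefSeq's on GRCm38.p6, 5′ to 3′ on the gene's strand, with matches to CTNGNAAC (X box core) and TGATTGG (Y box, the inverted CCAAT motif) in capitals.
H2-Aa: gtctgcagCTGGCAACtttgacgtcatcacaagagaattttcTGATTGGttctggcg
H2-Eb1: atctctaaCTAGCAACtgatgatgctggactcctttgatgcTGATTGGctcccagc
The H2-Aa stretch is chr17:34287859-34287915 on the minus strand and the H2-Eb1 stretch is chr17:34305765-34305820 on the plus strand, both upstream of the gene. The motifs were 26 bases apart in H2-Aa and 25 in H2-Eb1, the X box always on the far side from the start. In the 250 bases before the start, on either strand, CTNGNAAC occurred in 10.9% and TGATTGG in 7.23% of 32851 promoters. Both occurred in 269 promoters (0.819%). In 27 of the 32851 (0.0822%) they lay in this order on 1 strand within 40 bases, and H2-DMb1, H2-Ob, Rfx5 and Stat2 were among these, with 26 bases between the motifs in H2-DMb1. The letters searched were chosen after these promoters had been read. Neither motif was found in the windows of H2-DMa (2 in the table), Axl, Ccr2 or Cytip, which says only that these letters are not there. In GENCODE vM21 on mm10, H2-Ab1 (chr17:34257689-34269419) and H2-Eb1 (chr17:34305867-34316674) are on the plus strand of the same region and H2-Aa (chr17:34282744-34287823) on the minus strand.

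Before the results, 3 features of the libraries bear on them. Total UMIs per library ran from 1379637 in control replicate 3 to 16318946 in CYR61 replicate 2, and the cells kept numbered 149 to 2488. Barcodes recurred between tables of the same date stamp: 80.7% of the positive cells carried a barcode that was also listed in another table of the date, against 51.7% of all cells. In positive cells this share was 31.8% in control replicate 1 (14 of 44), 100% in the other 3 control libraries, and 75.8% to 96.4% in the CYR61 libraries. Xist, the RNA of the inactive X chromosome of female cells, stood at 1173 to 1271 CPM (counts scaled to a total of 1000000 per library) in control replicates 2 and 3 and CYR61 replicates 1 and 2, and at 1.31 CPM or less in the other 4, where 4 Y-linked genes summed to 333 to 413 CPM. The label male did not hold for those 4 libraries with Xist, and each group held 2 libraries of either kind.

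Among the 388 positive cells, Cd74 was detected in 380 (97.9%), H2-Ab1 in 330 (85.1%), H2-Aa in 247 (63.7%) and H2-Eb1 in 126 (32.5%). The invariant chain led in molecules too, with 3257 UMIs of Cd74 beside 1379 of H2-Ab1, 1001 of H2-Aa and 391 of H2-Eb1, in sums that were not scaled for gene length. Exactly 2 of the genes were found in 172 cells, 3 in 125 and all 4 in 91, and both chains of I-A were found in 200. H2-Eb1 overlaps an antisense gene model, and since the counting strand is not given in the sources used here, reads of the pair cannot be told apart. The positive cells held 16.8% of all UMIs and 75.1% of the class II UMIs (6028 of 8022).

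The level of the 4 genes varied widely from cell to cell. Its median was 9.47 class II UMIs per 10000 UMIs of a cell, with quartiles at 3.37 and 21.7 and a range from 0.671 to 150, against 2.64 over all cells. The highest cell, in CYR61 replicate 1, had 42 UMIs of Cd74, 23 of H2-Ab1, 18 of H2-Aa and 10 of H2-Eb1 among 6194. A level of at least 20 per 10000 was reached by 110 positive cells (28.4%), 104 of them in CYR61 libraries, which held 335 of the 388 positive cells, and 6 in control replicate 1. Such cells made up 2.69% ± 1.07 of all cells with CYR61 and 0.312% ± 0.624 in control (SD, n = 4, not tested). These 110 cells held 64.6% of the class II UMIs of all positive cells. At the threshold, 112 positive cells had exactly 3 UMIs, with a median level of 3.43 per 10000. Just outside it, 188 cells had 2 of the genes at 1 UMI each, with a median level of 2.83, and 80 cells had at least 3 UMIs of a single gene.

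**Figure D1:**
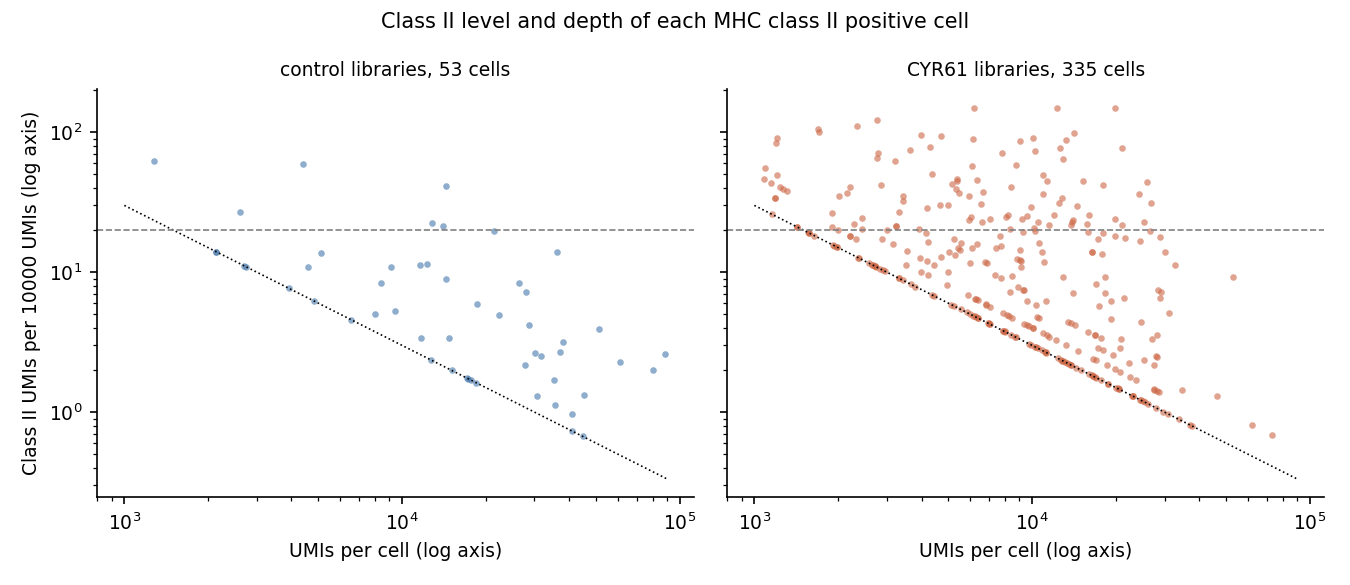
Total UMIs of each MHC class II positive cell (x, log scale) against its class II UMIs per 10000 UMIs (y, log scale), control cells and CYR61 cells in separate colours. The dotted line is the level that 3 UMIs give at each depth, and the dashed line is 20 per 10000. The deepest cells sit below the dashed line, some of them close to the dotted line. Of the 110 cells past the dashed line 104 are from CYR61 libraries.

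The rule favours deeply read cells. Positive cells had a median of 9845.5 UMIs, against 2186 in cells with none of the genes. Their share went from 1.42% of cells with 1000 to under 2000 UMIs to 27.1% of cells with at least 16000. The 143 positive cells under 5 per 10000 had a median of 17023 UMIs, whereas the 110 cells at 20 per 10000 or more had 5951.5. Few class II molecules in a deep cell and many in a shallow cell are therefore both counted as positive.

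Free RNA from broken cells can put class II UMIs into cells that do not express the genes, and granule-rich cells served as a reference. Cells with at least 0.5% of their UMIs from Ngp, Ltf and Camp, the secondary granule genes of neutrophil precursors, numbered 38. At a median of 2621.5 UMIs, 15.8% of them had a class II UMI and 1 was positive. Other cells had a class II UMI in 34.7%, at a median of 2778 UMIs. The level was 0.607 class II UMIs per 10000 in the granule-rich cells and 2.65 in the others. Both are sums over libraries, and the level of all cells ran from 0.458 in control replicate 3 to 4.26 in CYR61 replicate 1. The part of the libraries in this difference was not tested, nor was that of free RNA.

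The share of positive cells in the control libraries was 9.15% in replicate 1 (44 of 481 cells; 95% Wilson interval 6.88% to 12.1%), 3.61% in replicate 2 (6 of 166), 1.34% in replicate 3 (2 of 149) and 0.452% in replicate 4 (1 of 221). The share in the CYR61 libraries was 12.4% in replicate 1 (138 of 1117; interval 10.6% to 14.4%), 5.71% in replicate 2 (142 of 2488), 11.3% in replicate 3 (22 of 194) and 8.21% in replicate 4 (33 of 402). Control replicate 1 lay above CYR61 replicates 2 and 4, so the groups overlapped. The mean was 9.40% ± 3.03 with CYR61 and 3.64% ± 3.91 in control (SD, n = 4 each), a difference of 5.76 percentage points that missed the threshold (exact two-sided permutation test, p = 0.0857). Intervals cover counting error only.

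Because positive cells were deep, each cell was also thinned at random to 1000 UMIs and the rule applied again. Positive cells then made up 3.67%, 1.41%, 1.55% and 2.49% of the 4 CYR61 libraries (41, 35, 3 and 10 cells). In control replicate 1 they made up 1.04% (5 cells), and in the other control libraries none was found, which allows up to 1.81%, 2.01% and 1.36%. All 4 CYR61 shares lay above all 4 control shares, with means of 2.28% ± 1.05 and 0.260% ± 0.520 (SD, n = 4), and the exact two-sided permutation test gave p = 0.0286, the smallest it can give. The upper limits of control replicates 2 and 3 lie above the shares of CYR61 replicates 2 and 3, so the order of those libraries is not settled at this depth. For control replicate 4 this limit, taken from 3 counts, lies below all 4 CYR61 shares. The upper end of its Wilson interval, 1.71%, lies above the shares of CYR61 replicates 2 and 3, so that order is not settled either.

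**Figure D2:**
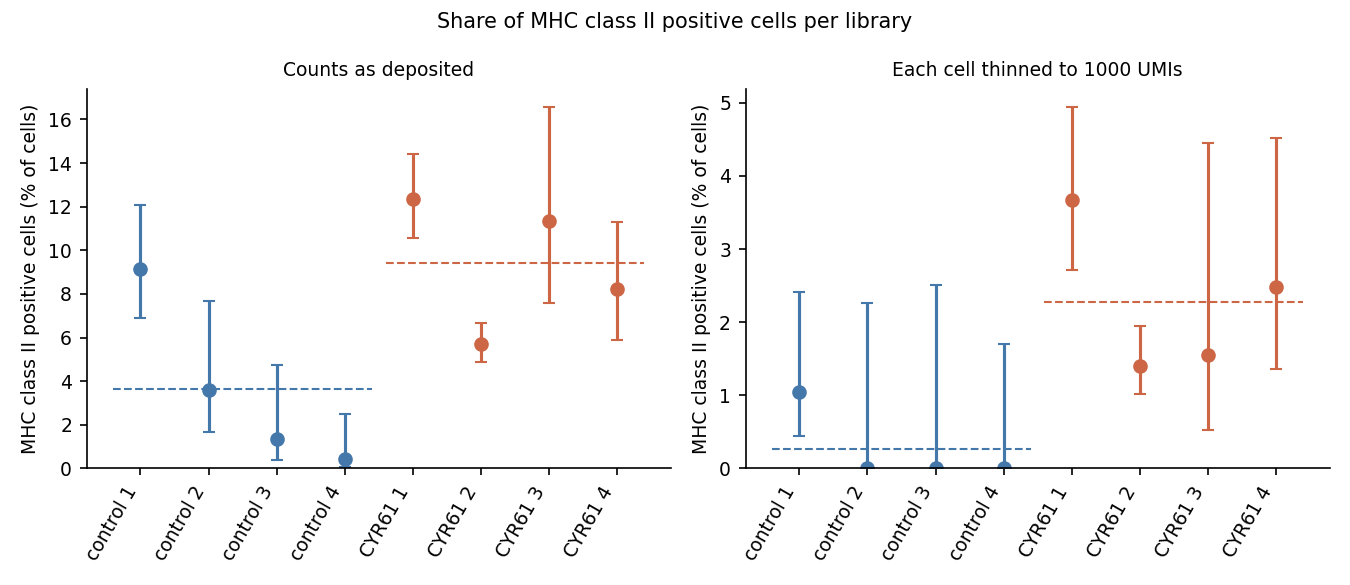
Share of MHC class II positive cells (percent of cells) in each of the 4 control and 4 CYR61 libraries, as deposited (left) and with every cell thinned to 1000 UMIs (right). Bars on the points are 95% Wilson intervals and dashed lines are group means; control replicate 1 at 9.15% overlaps the CYR61 libraries on the left, and all CYR61 libraries lie above all control libraries on the right.

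At matched depth the share was higher in CYR61 cells in the 3 bins under 8000 UMIs and higher in control cells in the 2 bins above. From 1000 to under 2000 UMIs the share was 1.80% in CYR61 cells and 0.210% in control cells, from 2000 to under 4000 it was 4.88% and 2.56%, and from 4000 to under 8000 it was 10.4% and 3.91%. From 8000 to under 16000 it was 13.9% and 15.7%. At 16000 UMIs or more it was 26.4% (91 of 345 cells) and 30% (27 of 90). These are sums over libraries and were not tested, and control replicate 1 held 44 of the 53 positive cells of the control libraries.

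**Figure D3:**
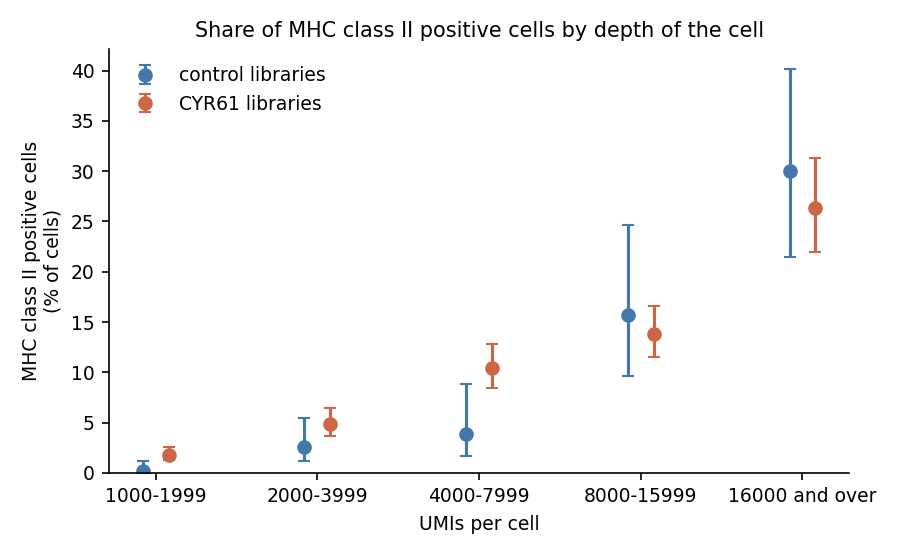
Share of MHC class II positive cells (percent, y) by UMIs per cell (5 bins, x), for control cells and CYR61 cells summed over libraries, with 95% Wilson intervals. The share climbs with depth in both groups, from 1.80% to 26.4% in CYR61 cells and from 0.210% to 30% in control cells. Of the 53 control positive cells 44 are from control replicate 1.

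The share also depended on which barcodes were kept. Over barcodes listed in a single table of their date, it was 6.67% in control replicate 1 and 0% in the other control libraries, and 1.77% to 3.39% in the CYR61 libraries, with means of 1.67% ± 3.33 and 2.69% ± 0.734 (SD, n = 4, exact permutation p = 0.657). Within the first date stamp the difference was 2.65 points (exact permutation p = 0.667) and within the second 8.88 points (p = 0.333), where the smallest possible p is 0.333. Without control replicate 1 the difference was 7.60 points (exact permutation p = 0.0571).

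In the RNA of all cells, whether positive or not, the 4 genes were higher in the CYR61 libraries, but none passed the test across all genes. H2-Aa stood at 30.2, 13, 4.04 and 5.61 CPM in the control libraries and at 69.6, 34.2, 37.6 and 35.1 CPM in the CYR61 libraries, with no overlap. H2-Ab1 ran from 10.8 to 41.4 CPM in control and from 47.8 to 96.8 CPM with CYR61, again with no overlap, which held in the higher direction for 2.83% of the 10243 genes tested. H2-Eb1 (0 to 9.19 CPM against 5.74 to 30.2 CPM) and Cd74 (28.3 to 145 CPM against 126 to 230 CPM) overlapped. The log2 fold change was 1.62 (SE 0.48) for H2-Aa, 1.29 (SE 0.36) for H2-Ab1, 1.96 (SE 0.71) for H2-Eb1 and 1.14 (SE 0.37) for Cd74. With edgeR's quasi-likelihood test and Benjamini-Hochberg adjustment, the adjusted p was 0.28 for H2-Aa, 0.21 for H2-Ab1, 0.52 for H2-Eb1 and 0.38 for Cd74. In this comparison 1.06% of genes were called higher (109) and 0.0488% lower (5). With no filter on low counts all 4 passed, and within either date stamp alone none did. More positive cells and more class II RNA per cell cannot be told apart in these sums.

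Every positive cell had at least 2 of 13 macrophage markers, and so had each of the 388 cells with none of the 4 genes that were nearest in UMIs within the same library. Csf1r, the M-CSF receptor, was detected in 86.9% of positive cells and 85.6% of the nearest cells, and Adgre1, which encodes F4/80, in 92.3% and 92.5%. Of the genes that define other class II cells, Cd79a, part of the B cell receptor, had 1 UMI, Ms4a1 and Ighd of B cells had 0, and Flt3, the receptor of dendritic cell precursors, was detected in 0.773% of positive cells and Zbtb46 in 0.515%. Ighm, the heavy chain of IgM, was not near 0, with 76 UMIs and detection in 9.54% of positive cells against 4.64% of the nearest cells, and Cd79b had 13 UMIs and 2.58% against 1.80%. In the RNA of all cells Ighm was lower with CYR61, by a log2 fold change of -2.72 (edgeR adjusted p = 0.019).

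Markers of other types were still found in many of these deep cells. At least 2 conventional dendritic cell markers were found in 75 positive cells (19.3%) against 12.1% of the nearest cells, with an exact sign-flip permutation p of 0.0313 over 6 libraries, the smallest possible, which became 0.406 when adjusted over 13 types. Monocyte markers were found in 18.6% against 9.54% (exact sign-flip permutation p = 0.0625), B cell markers in 4.90% against 1.80%, and neutrophil markers in 51.8% against 50.8%. Thinned to 1000 UMIs, 3 positive cells had dendritic markers, 4 monocyte markers and 0 B cell markers, while 9.02% had neutrophil markers against 10.8% of the nearest cells. In the positive cells the summed B cell markers ran from 40.7 to 51.1 CPM in control and from 28.5 to 54.6 CPM with CYR61, and the dendritic markers from 207 to 267 CPM and from 103 to 196 CPM. Itgax alone, 1 of the 13 dendritic markers, stood at 178 to 244 CPM in these control cells and at 82.8 to 167 CPM with CYR61. It was detected in 55.7% of positive cells and in 45.9% of the nearest cells. The part of these markers in the results below was not tested. Without cells that carried at least 2 markers of B cells, neutrophils, or mast cells and basophils, the share of positive cells was 5.92% ± 2.76 with CYR61 and 0.493% ± 0.985 in control (SD, n = 4, exact permutation p = 0.0286, the smallest possible). That filter took unequal parts of the groups: it removed 49 of the 53 positive cells of the control libraries (92.5%), leaving 4 in control replicate 1 and 0 in the other 3, and 156 of the 335 of the CYR61 libraries (46.6%).

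Other genes of the positive cells were compared with cells that had none of the 4 genes, in the same library and within the same range of UMIs. The 6 libraries with at least 5 positive cells entered (control replicates 1 and 2 and all CYR61 libraries), and the 4 rule genes were left out. Of 8076 genes tested, 8 were higher (0.0991%) and 56 lower (0.693%) in positive cells by edgeR's quasi-likelihood test with library as a block and Benjamini-Hochberg adjusted p under 0.05. The higher genes were Ccr2, Axl, H2-M2, Ccl5, H2-DMb1, Cytip, Tnip3 and Cd72. DESeq2 called 1 of these 8, Cd72, and gave the other 7 no adjusted p, and with every cell thinned to 1000 UMIs the 7 had too few counts to be tested and Cd72 did not pass (0.47, edgeR adjusted p = 0.46). The thinned cells had 3 other genes higher, Emb, Ptpn6 and Tgfbi. In the first date stamp alone 51 genes were called in either direction, and in the second 2. Genes of neutrophil granules, ferritins, lysosomal cathepsins, lipid-associated macrophage genes and mitochondrial genes were among the lower ones. Values below are CPM for control replicates 1 and 2 and then CYR61 replicates 1 to 4.

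Most other class II genes had too few counts: 3 of the 10 listed in the tables could be tested, and 1 was higher. H2-DMb1, the β chain of DM, stood at 53.5, 44.4, 65.7, 51.3, 54.2 and 38.7 CPM in positive cells and at 36.1, 21.6, 17.2, 18.3, 18.6 and 37.5 CPM in comparison cells. It was higher in 6 of 6 libraries, most in CYR61 replicates 1 to 3 and least in CYR61 replicate 4, with a log2 fold change of 1.06 (SE 0.21, edgeR adjusted p = 0.0073). Reads of H2-DMb1 and its close copy H2-DMb2 may be split between them by the counting. The call was lost without CYR61 replicate 1 (log2 fold change 0.78) or CYR61 replicate 2 (0.91), and against the nearest cells (1.02, edgeR adjusted p = 0.098). H2-DMa, the α chain of DM, had a log2 fold change of 0.75 (edgeR adjusted p = 0.24).

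Ciita, the class II coactivator, had too few counts for that test. It had 9, 0, 37, 31, 1 and 11 UMIs in positive cells of the 6 libraries and 0, 0, 5, 0, 0 and 0 in as many nearest cells. It was detected in 12.6% of positive cells and 0.773% of the nearest cells. In the 3 CYR61 libraries left when cells with those B cell, neutrophil, mast cell or basophil markers were dropped, 35 genes were higher (0.459% of 7627) and 37 lower (0.485%). Those libraries were CYR61 replicates 1, 2 and 4, with 78, 91 and 6 positive cells left, so replicates 1 and 2 held most of them. Ciita could be tested there and was called higher, at 4.25 (SE 0.53, edgeR adjusted p = 5.1e-12). H2-DMa was called there too, at 1.77 (SE 0.30, edgeR adjusted p = 1.4e-06). The genes of X box factors, Rfx5, Rfxap and Rfxank were detected in 7.99%, 27.8% and 11.6% of positive cells. H2-DMb2 was detected in 1.55%, and H2-Oa and H2-Ob, the chains of the DM inhibitor DO, in 0.258% each.

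Axl, a receptor tyrosine kinase that binds dead cells through GAS6, rose in positive cells. It stood at 13.1, 77.8, 69.9, 72.9, 57.1 and 59.9 CPM in positive cells and at 13.2, 27.0, 16.8, 20.7, 37.1 and 27.9 CPM in comparison cells. Control replicate 1 alone showed no difference, and the log2 fold change was 1.39 (SE 0.21, edgeR adjusted p = 2.1e-04). Against the nearest cells it was 1.5 (edgeR adjusted p = 0.0090). Axl was detected in 29.6% of positive cells and 10.8% of the nearest cells.

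Ccl5, a chemokine that draws T cells and monocytes, and Ccr2, the chemokine receptor by which monocytes leave the marrow, also rose. Ccl5 stood at 1.19, 25.9, 26.9, 103, 34.2 and 86.3 CPM in positive cells and at 0, 0, 13.1, 25.8, 33.4 and 41.0 CPM in comparison cells. It was higher in 6 of 6 libraries, by little in CYR61 replicate 3, with a log2 fold change of 1.31 (SE 0.23, edgeR adjusted p = 0.0020) that fell to 0.87 and lost its call without CYR61 replicate 2. Ccr2 stood at 27.3, 255, 141, 170, 11.4 and 10.6 CPM against 9.63, 16.2, 13.1, 9.65, 14.9 and 3.49 CPM. The libraries split here: the 3 highest stood at 141 CPM or more and the others at 27.3 CPM or less, and CYR61 replicate 3 was below its comparison cells. Its log2 fold change was 3.39 (SE 0.26, edgeR adjusted p = 5.0e-09). Ccr2 is itself a monocyte marker, and the share of positive cells with monocyte markers stands above.

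Cytip, which encodes a cytohesin-binding regulator of leukocyte adhesion, stood at 96.3, 77.8, 98.5, 94.5, 5.71 and 35.2 CPM in positive cells and at 38.5, 27.0, 43.8, 37.6, 18.6 and 22.7 CPM in comparison cells. It was higher in 5 of 6 libraries, the exception being CYR61 replicate 3, with a log2 fold change of 1.04 (SE 0.16, edgeR adjusted p = 3.2e-04). Tnip3, an inhibitor of NF-κB signalling, had a log2 fold change of 0.64 and was higher in 5 of 6 libraries, and Cd72, a C-type lectin, 0.40 and 6 of 6. Tnip3 lost its call without CYR61 replicate 1 or 2, and Cd72 without control replicate 1, CYR61 replicate 1 or CYR61 replicate 2. H2-M2, a nonclassical class I gene, had a log2 fold change of 1.33, called no longer without CYR61 replicate 1 or 2.

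**Figure D4:**
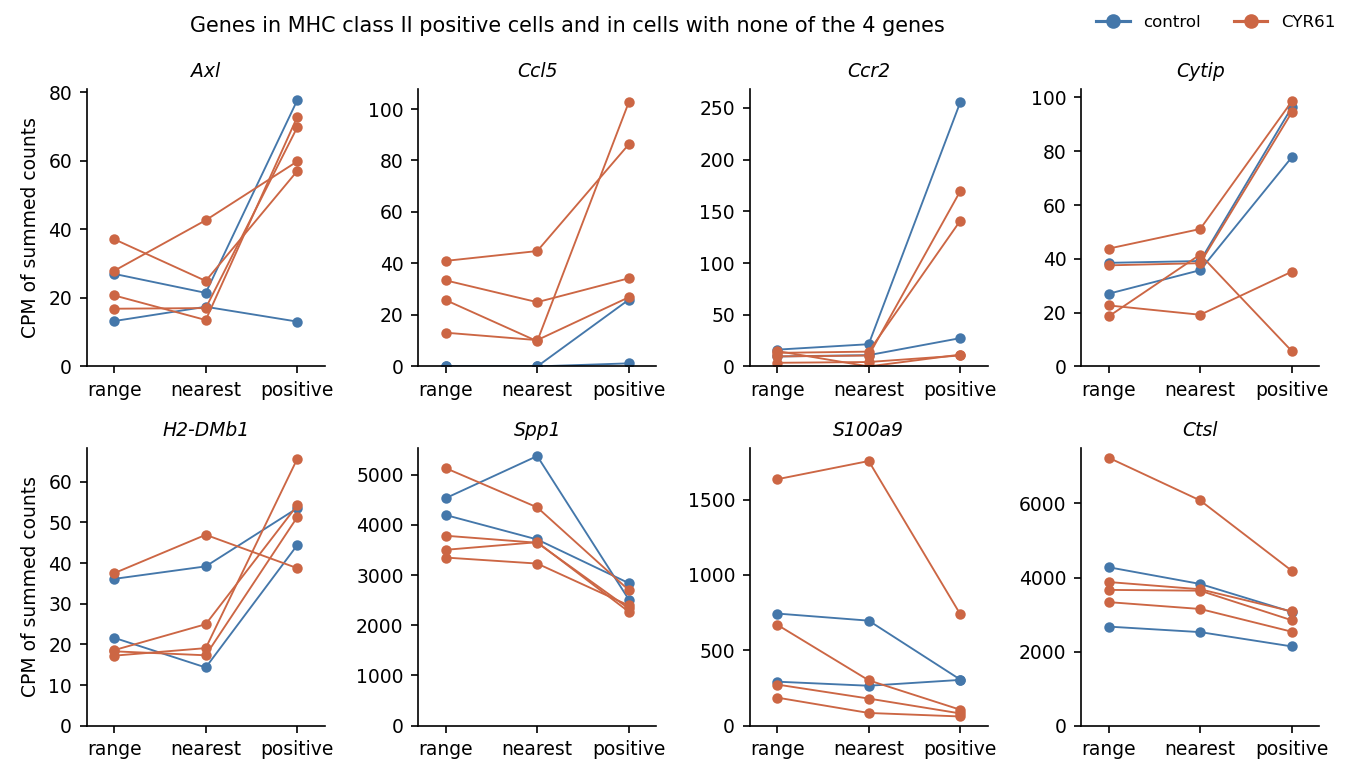
CPM (y) of Axl, Ccl5, Ccr2, Cytip, H2-DMb1, Spp1, S100a9 and Ctsl in each of 6 libraries, for comparison cells in the UMI range, for the nearest comparison cells in UMIs, and for MHC class II positive cells, with lines joining a library. Ccl5, H2-DMb1, Spp1 and Ctsl moved in 1 direction in 6 of 6 libraries from range to positive cells, and Ccr2 reached 141 CPM or more in 3.

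Lower in positive cells were most of the neutrophil markers, 5 of 6 tested (S100a9, S100a8, Ngp, Camp and Ltf), with a median log2 fold change of -1.68 beside 0.0012 over all genes. S100a9, which with S100a8 forms calprotectin, stood at 306, 304, 81.2, 61.0, 739 and 106 CPM in positive cells and at 744, 292, 273, 186, 1635 and 669.9 CPM in comparison cells. It was lower in 5 of 6 libraries, control replicate 2 being level, and its log2 fold change was -1.61 (SE 0.15, edgeR adjusted p = 9.3e-08). Chil3, a chitinase-like protein of monocytes and granulocytes, fell by 1.86 on the log2 scale. Against the nearest cells S100a9, S100a8, Ngp and Chil3 were still lower, at -1.07, -0.94, -1.39 and -1.69, while Camp and Ltf had too few counts there to be tested.

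Genes of lipid-associated and scar-associated macrophages were lower too, 4 of 7 tested, with a median log2 fold change of -0.48. Spp1, which encodes the matrix protein osteopontin, stood at 2841, 2514, 2336, 2271, 2703 and 2396 CPM in positive cells and at 4199, 4534, 3786, 3505, 5134 and 3351 CPM in comparison cells. Spp1 was lower in positive cells in every library, and the log2 fold change was -0.82 (SE 0.075, edgeR adjusted p = 5.6e-08). Fabp5, a fatty acid carrier, and Lgals3, which encodes galectin-3, were lower, with log2 fold changes of -0.65 and -0.64, and so was Gpnmb, at -0.48. Against the nearest cells Spp1 alone of these 4 was called, at -0.71 (edgeR adjusted p = 2.5e-05).

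The list of class II endosomal processing, which does not hold H2-DMa or H2-DMb1, had no gene called higher. Of 10 genes of class II endosomal processing tested, 4 were lower and 0 higher, and these were the cathepsins Ctsl (-0.59), Ctsd (-0.44), Ctsb (-0.42) and Ctss (-0.45, the protease that trims the invariant chain). Ctsl stood between 2140 and 4184 CPM in positive cells and between 2675 and 7236 CPM in comparison cells and was lower in 6 of 6 libraries. Against the nearest cells only Ctsl remained called, at -0.40 (edgeR adjusted p = 0.012). The ferritin chains Fth1 (-0.88) and Ftl1 (-0.77) and lysozyme, Lyz2 (-0.73), were lower as well, and ribosomal RNA, listed as Rn18s, too (-1.04). Of the mitochondrial genes, mt-Rnr2 (-1.05), mt-Rnr1 (-0.97), mt-Co1 (-0.69) and mt-Nd4 (-0.47) were among the lower ones. The median share of mitochondrial UMIs was lower in positive than in comparison cells in 6 of 6 libraries, at 3.23%, 3.47%, 6.42%, 6.97%, 2.80% and 4.02% against 5.99%, 5.46%, 11.1%, 10.6%, 4.45% and 8.57%, and its part in the lower genes was not tested. The nearest cells had a median of 8636 UMIs and the comparison cells in range 2649, beside 9845.5 in positive cells. In control replicates 1 and 2 and CYR61 replicate 3 the nearest cells stayed shallower. Their medians were 7006.5, 16769 and 4370.5 UMIs against 14618.5, 33714.5 and 8429 in positive cells. Against the nearest cells the lower genes shrank in number from 56 to 10 (0.144% of 6943), all 10 of them among the 56. The higher genes shrank from 8 to 3 (0.0432%), which were Ccl5, Axl and Cytip, while Ccr2 and H2-M2 had too few counts there to be tested, and the part of depth in the remainder was not tested.

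Among the other lists, 0 of 34 type I interferon genes, 0 of 5 costimulation genes and 0 of 12 cell cycle genes passed. Irf1, a target of interferon-γ, had a log2 fold change of 0.15. Cd40 and Cd80, which encode costimulatory receptors, stood at 0.42 and 0.37 and did not pass. In MHC class I, 1 of 13 genes was lower, B2m (-0.40), which encodes the light chain, and its call was lost against the nearest cells. Csf1r (0.11), Adgre1 (0.00), Cd68 (-0.18) and the integrin gene Itgax (0.26) did not pass either.

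Positive cells with at least 3 of the genes and 5 UMIs gave 31 higher genes (0.408% of 7593) and 57 lower (0.751%). Axl was then at 2.20 and H2-DMb1 at 1.47, and H2-DMa passed at 1.18 (SE 0.28, edgeR adjusted p = 0.016). Genes of the lists that passed here and not above included Irf7 (0.48, edgeR adjusted p = 0.028), Ifi44 (0.93, 0.020), Gbp2 (0.89, 0.0064) and C1qa (0.75, 0.012). In the 3 CYR61 libraries left without cells with markers of other types, Irf7 (0.62, edgeR adjusted p = 5.3e-04) and Gbp2 (0.86, 0.0040) passed too. The integrin chain gene Itgb7 (1.5), the lectin Clec4b1 (1.37) and the leukocyte actin-binding protein Lsp1 (1.24) were among the higher genes, named here after their values were seen. Over barcodes listed in 1 table alone, in 4 libraries, 0 genes were higher (126 of 4396 genes reached an unadjusted p under 0.05 in either direction) and 5 lower (0.114%), which were S100a9 (-1.28), Ltf (-2.36), Ngp (-1.41), Camp (-1.94) and Spp1 (-0.94).

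The genes that rose with CYR61 in positive cells belonged largely (17 of 30) to the type I interferon response, by which cells answer viruses and foreign nucleic acids. With 2 control libraries (44 and 6 positive cells) and 4 CYR61 libraries, 30 of 8687 genes were higher (0.345%) and 0 lower by edgeR's quasi-likelihood test with adjusted p under 0.05, while 397 genes reached an unadjusted p under 0.05. DESeq2 called 78 higher and 0 lower. All 30 were also among the 109 genes higher with CYR61 in all cells, which include the positive cells.

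Of 35 type I interferon genes tested, 17 were higher and 0 lower, with a median log2 fold change of 3.03 beside -0.0008 over all genes, and the fold change was positive in 35 of 35. Isg15, a ubiquitin-like modifier, stood at 16.6 and 14.8 CPM in control positive cells and at 279, 273, 302 and 417 CPM with CYR61, a log2 fold change of 4.39 (SE 0.35, edgeR adjusted p = 0.0017). Ifit2, which binds viral RNA, stood at 8.32 and 29.6 CPM against 550.5, 369.6, 922 and 1440 CPM, at 5.86 (SE 0.75, edgeR adjusted p = 0.025). The groups did not overlap in either gene, which held in the higher direction for 5.53% of all genes tested.

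Irf7, the transcription factor that amplifies type I interferon, stood at 23.8 and 29.6 CPM against 299, 248, 773 and 799 CPM, at 4.44 (SE 0.63, edgeR adjusted p = 0.026). The second date stamp, CYR61 replicates 3 and 4, had the higher values of Ifit2 and Irf7. Mx1, a GTPase against viruses, rose by 4.39, Oasl2 by 3.55, Parp14 by 1.87 and Siglec1, a sialic acid receptor of interferon-exposed macrophages, by 3.78. Ifi44 had 0 UMIs in both control libraries and stood at 52.8 to 134 CPM with CYR61.

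Outside the interferon list, 2 of 13 macrophage genes rose, Fcgr1 (1.91), the high-affinity IgG receptor, and C1qa (1.73), a chain of complement C1q. Of 14 genes of the interferon-γ axis 1 passed, Gbp2 (3.61, 59.9 to 106 CPM with CYR61 against 4.76 and 14.8). Irf1 did not pass, at 0.21. In MHC class I 0 of 13 genes passed, with a median of 1.10.

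**Figure D5:**
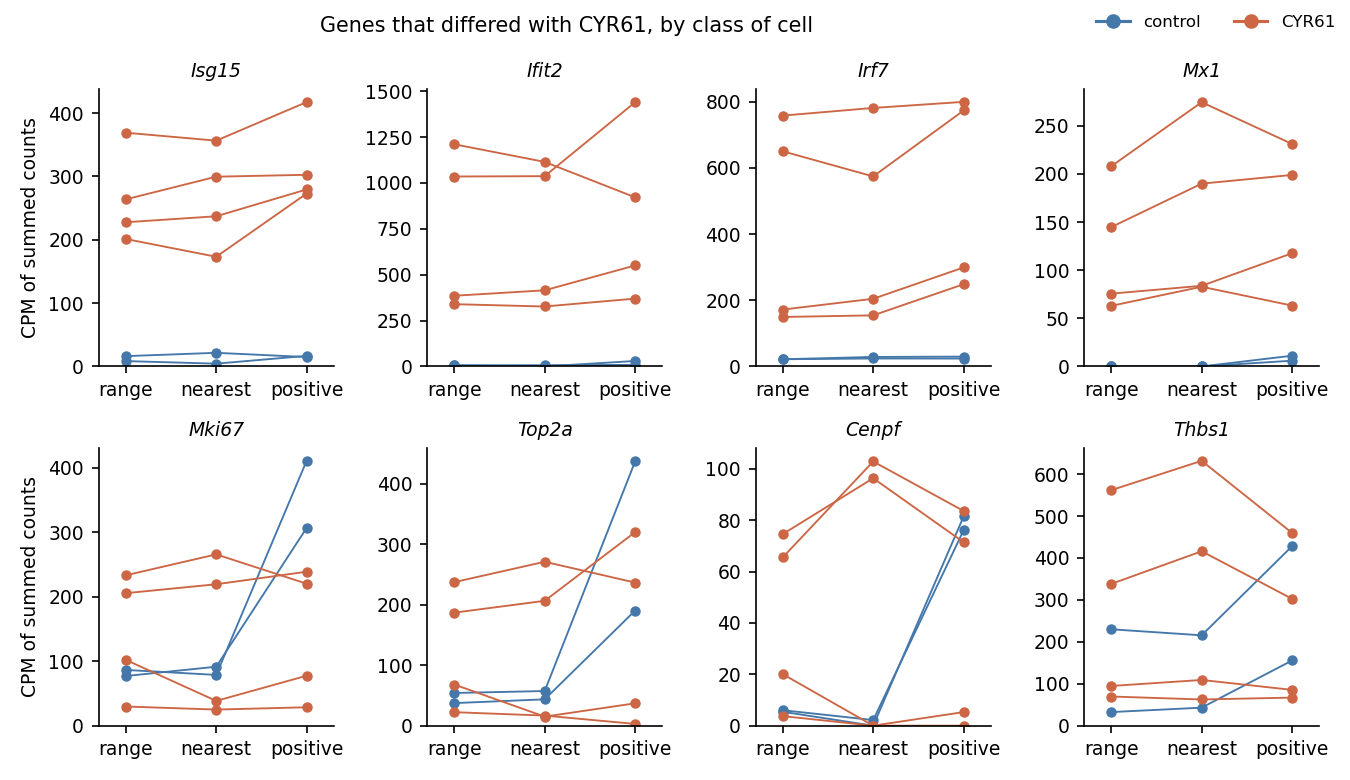
CPM (y) of Isg15, Ifit2, Irf7, Mx1, Mki67, Top2a, Cenpf and Thbs1 in each of 6 libraries, for comparison cells in the UMI range, the nearest comparison cells in UMIs and MHC class II positive cells, with lines joining a library. The interferon genes separate the 2 control from the 4 CYR61 libraries in all 3 classes, and Mki67 and Top2a climb from comparison to positive cells in the control libraries.

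The interferon calls rest on 2 control libraries: without control replicate 1, 0 genes passed (Isg15 then stood at 4.60), and without control replicate 2 or without CYR61 replicate 4, 3 did. In the first date stamp alone 75 genes were higher and 41 lower, and over barcodes listed in 1 table alone 6 of 1632 were higher (0.368%), Isg15, Ifit2 and Irf7 among them. Neutrophil markers were found in 95.5% of positive cells as the mean of the control libraries and in 60% as that of the CYR61 libraries, B cell markers in 33.0% and 2.97%, monocyte markers in 51.5% and 19.1%, and dendritic markers in 37.5% and 17.7%. Control replicate 2, with 6 positive cells, carried much of the control means, and in control replicate 1 alone the shares were 90.9%, 15.9%, 36.4% and 25%. Summed neutrophil markers ran from 874 to 1730 CPM in control positive cells and from 498 to 2968 CPM with CYR61, and their part in the result was not tested.

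The interferon difference was not confined to positive cells. In comparison cells Isg15 stood at 8.42 and 16.2 CPM in the control libraries and at 228, 201, 264 and 369 CPM with CYR61. The test of whether the CYR61 effect differed between positive and comparison cells called 0 of 34 interferon genes, with a median difference of -0.11 on the log2 scale.

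That test called 5 of 8076 genes (0.0619%), all with a lower CYR61 effect in positive cells, and 461 at an unadjusted p under 0.05. Of 12 cell cycle genes tested, 3 were among them: Mki67, the proliferation antigen (-2.03, SE 0.23, edgeR adjusted p = 1.7e-04), Cenpf, a kinetochore protein (-3.61, SE 0.58, edgeR adjusted p = 0.010), and Top2a, a topoisomerase of dividing cells (-2.31, SE 0.40, edgeR adjusted p = 0.020). The median of the cell cycle list was -1.70.

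Mki67 stood at 307 and 411 CPM in positive cells of control replicates 1 and 2, against 77.0 and 86.5 CPM in their comparison cells. In the CYR61 libraries it stood at 239, 220, 28.5 and 77.5 CPM in positive cells and at 205.5, 233, 29.7 and 102 CPM in comparison cells. Mki67 was thus higher in positive cells in both control libraries and in 1 of the 4 CYR61 libraries. The comparison cells of control replicate 1 had a median of 2281 UMIs and its positive cells 14618.5. In the nearest cells Mki67 stood at 91.4 and 78.7 CPM in control and at 219, 266, 24.96 and 38.4 CPM with CYR61. Against these it was higher in both control and in 3 of the 4 CYR61 libraries, and the difference in the CYR61 effect was -1.84 (edgeR adjusted p = 0.0056). The nearest cells of these control libraries were still shallower, with medians of 7006.5 and 16769 UMIs beside 14618.5 and 33714.5 in positive cells. The part of depth was not tested. Top2a likewise was higher in positive cells in both control libraries and in CYR61 replicate 1 alone of the CYR61 libraries, at 190.3 and 437 CPM against 37.3 and 54.0 CPM in control, and at 320, 236.5, 2.85 and 37.0 CPM against 187, 237, 22.3 and 68.0 CPM with CYR61. Cenpf was at 76.1 and 81.5 CPM against 6.02 and 5.40 CPM in control. The comparison cells of control replicate 2 numbered 9, with a median of 15501 UMIs beside 33714.5 in its positive cells. The comparison values of that library therefore rest on few and shallower cells.

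The other called genes were Slfn9, a schlafen family member (-3.07, SE 0.47, edgeR adjusted p = 0.0094), and Thbs1, which encodes the matrix protein thrombospondin-1 (-1.19, SE 0.22, edgeR adjusted p = 0.046). Slfn9 stood at 44.0 and 222 CPM in control positive cells against 6.02 and 16.2 CPM in their comparison cells, and Thbs1 at 428 and 156 CPM against 229.9 and 32.4 CPM. Control replicate 2 has 6 positive cells, and without it Cenpf and Mki67 remained called while Top2a (-2.05), Slfn9 (-2.64) and Thbs1 (-1.05) did not. Without CYR61 replicate 2 Mki67 alone remained called, without control replicate 1 Cenpf (-3.85) and Top2a (-2.77) were lost, and Thbs1 lost its call whichever of the 6 libraries was left out. In positive cells with at least 3 genes and 5 UMIs, where control replicate 1 was the sole control library, Mki67 (1.73), Top2a (1.72) and Slfn9 (1.49) turned to the other sign.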

How the data were processed

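The RNA of single cells was counted in 8 HIVE libraries. The deposited tables hold raw counts (UMIs) per gene and barcode, 5000 barcodes each, on mm10 per the submitters' processing notes. Which aligner, counter, annotation and cell calling the authors used is not given in the sources used here. Groups and replicate numbers came from the titles.

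Of 40000 barcodes, 7973 passed the filters, and 2755 of these were dropped for having more UMIs in another table of their date stamp. Among the dropped barcodes 127 met the class II rule. Of the positive barcodes kept, 2 were also listed under the other date stamp. No doublet caller was run and doublets were left in. The positive cells, gene lists and markers were chosen with earlier results of these data known.

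Counts were summed per library (and class) and tested with the quasi-likelihood test of edgeR 4.0.16 (R 4.3.3), after filterByExpr and TMM scaling. The 4 fits compared CYR61 with control in all cells, positive with comparison cells with library as a block, CYR61 with control within positive cells, and the difference of the CYR61 effect between the classes. Genes passed at a Benjamini-Hochberg adjusted p under 0.05 over all genes tested. CPM is the count over the library's or class's total count. Shares were compared by exact two-sided permutation over all 70 assignments, or 35 with 1 library left out and 6 within a date stamp. Of 100 genes simulated with 4-fold changes, the 4 fits recovered 89, 91, 75 and 44, and of 100 with 2-fold changes 51, 67, 19 and 3, in that order. False calls numbered 9, 8, 6 and 2. The simulated counts had the same spread for every gene and no differences between libraries beyond depth. Recovery in the real libraries may therefore be lower. A zero share was given a floor of 3 counts. Intervals are 95% Wilson intervals from scipy 1.17.1.

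For positive against comparison cells, the genes chosen to be named were the 15 with the largest increase and 10 with the largest decrease. They had to pass and be detected in at least 10% of the higher class. For the other fits they were the 10 largest in each direction, or all where fewer passed. Gm, Rik, mt-, Rpl and Rps genes were left out of this choice. Mir6236 (-1.03) and Gda (-0.66) were chosen for positive against comparison cells but are given only here. So are Ifi213 (8.97), Ifit3 (4.99), Ifit1 (4.07) and Cmpk2 (3.94) for CYR61 within positive cells. Class II genes, a few markers and up to 4 called genes of each list per direction were added.

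Alternatives were DESeq2 1.42.0, other filters on cells and genes, another rule for positive cells, thinning, blocks and leaving out each library. A fit against the 1 nearest cell, the Xist split as a term and barcodes listed in 1 table alone were added after seeing the data.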

Additional observations from a re-analysis of the deposited data

Results flagged for a closer look

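Samples far from the rest of their group were looked for in 16 groups of 4 libraries, where chance flags about 1 in 20, and 2 were found. With every cell thinned to 1000 UMIs, control replicate 1 had a share of positive cells of 1.04%, while the other 3 control libraries had 0%. In all cells, CYR61 replicate 1 had H2-Aa at 69.6 CPM, above 34.2 to 37.6 CPM in the other CYR61 libraries.

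The effect of CYR61 differed between positive and comparison cells in 5 genes, by the edgeR test of the difference itself. The difference in log2 fold change was -2.03 for Mki67, -3.61 for Cenpf and -2.31 for Top2a, all genes of dividing cells, and -3.07 for Slfn9 and -1.19 for Thbs1. In the 2 control libraries each of the 5 was higher in positive than in comparison cells, but control replicate 2 had only 6 positive and 9 comparison cells.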

How the results depend on the processing

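The difference in the share of positive cells kept its sign under every alternative tried. It was 2.02 percentage points with each cell thinned to 1000 UMIs and 5.43 points without cells with markers of other types, which leaves 4 of 53 control and 179 of 335 CYR61 positive cells, both past the threshold, and 4.70 to 7.60 points with 1 library left out. Of the 4 class II genes in all cells, none passed in the reported fit, 1 passed with DESeq2, 1 with the replicate number as a block, 1 with the date stamp as a term, 4 with no filter on low counts, and 0 to 2 with 1 library left out.

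Genes that differed between positive and comparison cells numbered 64. They numbered 132 with no filter on low counts, 0 with no library block (84 at an unadjusted p under 0.05), 2 in the second date stamp alone, 13 against the 1 nearest cell, 117 with every barcode kept in every table, 5 over barcodes listed in 1 table alone, and 43 to 64 with 1 library left out. Tnip3 turned to -0.093 in the second date stamp alone, and Hmox1, reported at -0.32, to 0.042 over barcodes listed in 1 table.

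Genes higher with CYR61 within positive cells numbered 30, with 0 lower. The count in both directions was 78 with DESeq2, 120 with no filter, 140 with the date stamp as a term (99 higher and 41 lower), 108 with the Xist split as a term, 116 in the first date stamp alone (75 higher and 41 lower), 3 in libraries with at least 20 positive cells, 0 with every barcode kept in every table, 2 with at least 3 genes and 5 UMIs, 6 over barcodes listed in 1 table, and 0 to 49 with 1 library left out, the extremes without control replicate 1 and without CYR61 replicate 2. Those 6 (0.368% of 1632 genes) were Ifit2, Irf7, Isg15, Rtp4, Ifi209 and Xist, from 1 control and 3 CYR61 libraries that the Xist split also divided.

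Genes with a different CYR61 effect numbered 5, and 3 with DESeq2, 20 with no filter, 0 with every barcode kept in every table, 1 with at least 3 genes and 5 UMIs, 0 over barcodes listed in 1 table, and 1 to 6 with 1 library left out. With at least 3 genes and 5 UMIs, Cenpf turned to 0.30, Mki67 to 1.73, Slfn9 to 1.49 and Top2a to 1.72, and Mki67 was at 0.082 over barcodes listed in 1 table. Causes were not tested.

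The replicate numbers did not pair the samples: same-numbered libraries correlated at -0.22, 0.33, -0.11 and 0.33, and not every library correlated best with its own number. With the replicate block, 244 genes were called within positive cells (149 higher and 95 lower, all 30 of the reported genes among the 149), and the share's difference of 5.76 points had an exact permutation p of 0.125, the smallest possible.

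Over single genes named in the report, 747 of 1023 alternative values kept sign and side of the threshold, 257 lost their call, 12 gained it and 7 changed sign. The CYR61 comparison within positive cells and the test of the difference were not run in the second date stamp alone or without cells with markers of other types, since no control library then had 5 positive cells.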
